A study of Mus musculus with 9 samples.

Results

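The genes described here build and run the machinery that copies DNA, together with the E2F and cyclin E genes that bring a cell from G1 into S phase. They are 45 named genes of the 23951 gene symbols in the table, picked by their known roles. These genes and the further lists below were chosen with earlier results of these data known. Their counts beside all tested genes are therefore descriptions and not independent evidence. All 45 were present and passed the filter on low values (at least 1 FPKM in at least 3 libraries). FPKM counts sequenced fragments relative to transcript length and to the reads a library yielded. It does not correct for differences in RNA composition between libraries, and results under other scalings are given below. The cells were mast cells of wild-type C57BL/6 mice, grown out of bone marrow over 4 to 6 weeks in interleukin-3 and stem cell factor, each at 10 ng/ml. Cells of the first group, called untreated, received neither IgE nor antigen. The second group, called IgE, was exposed for 18 h to 0.5 µg/ml of an IgE that recognises the hapten DNP. The third group, called antigen, had the same IgE and then 2 h with 50 ng/ml DNP-BSA, albumin carrying DNP, which cross-links the IgE bound to its receptor. Each group had 3 libraries. The labels put over 95% of the cells as positive for the IgE receptor and for CD117 (Kit), and they name no sort and no measure of cell cycle.

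Replication starts from origins that are licensed in G1, when the origin recognition complex with CDC6 and CDT1 loads the MCM helicase onto DNA. At the start of S phase CDC45 and the GINS complex join the loaded helicase and activate it, primase and DNA polymerase alpha lay down primers, and the RFC complex loads the PCNA ring that holds the main polymerases on the template. Most of these genes are known targets of E2F transcription factors, which the retinoblastoma family of proteins restrains until cyclin E and its kinase act. Mast cells grown with interleukin-3 and stem cell factor keep dividing in culture, so genes of this kind are active before any stimulus.

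By the steps between low values, sequencing depth came to 30.0 to 33.5 Mreads for untreated cells, 32.2 to 39.7 Mreads for IgE and 20.9 to 28.6 Mreads for antigen (mega-reads). Of 12 mast cell markers, 10 were at 1 FPKM or more in each group, while Cpa3 and Cma1 were listed at 0 in all 9 libraries. Summed lymphoid markers stayed at or under 1.75 FPKM and neutrophil markers at or under 3.05 FPKM in every library, with Cd3e, Cd3g and Ms4a1 at 0 throughout. Whether a 0 in all 9 libraries means absent RNA or a gene that was not counted cannot be told. Other marker sums moved between groups. The 8 macrophage and monocyte markers summed to 149.3 to 164.9 FPKM in untreated, 128.9 to 139 FPKM in IgE and 112.1 to 114.2 FPKM in antigen libraries. The 10 erythroid markers summed to 17.9 to 21.1, 24.8 to 26.0 and 30.6 to 31.9 FPKM in the same order, with Slc4a1 at 0. The 5 basophil markers summed to 531 to 570.0, 451 to 499 and 577 to 594 FPKM, and the 6 progenitor markers to 707 to 744, 670.3 to 724 and 742 to 784 FPKM. The 12 mast cell markers summed to 19800 to 20960, 19360 to 21020 and 23990 to 25270 FPKM. Within these lists single markers moved in both directions, some with the sum and some against it. Of the mast cell markers, Srgn was 5244, 5935 and 9184 FPKM and Hdc 27.1, 28.7 and 895 FPKM on average. Ms4a2 was 1190, 1080 and 626 FPKM and Mrgprb2 159, 130 and 81.2 FPKM, so both fell while the sum rose after antigen. Cd68 was 8.62, 16.1 and 30.2 FPKM on average while Lyz2 was 72.1, 53.8 and 37.5 FPKM. Cd200r3, the largest part of the basophil sum, was 393, 344 and 492 FPKM, while Prss34 and Cebpa ended 2.20-fold and 2.09-fold below untreated. After antigen Cd34 and Myb were higher than untreated (1.23-fold and 1.36-fold) and Ly6a lower (1.26-fold). The part of these shifts in the results was not tested. IgE replicate 3 stood somewhat apart: its genes differed from the other IgE libraries with an SD of 0.173 on the log2(FPKM + 1) scale, against 0.0932 to 0.124 for each of the other 8 libraries, and the median replication gene lay 0.126 lower in it. Antigen replicate 3 listed 0 for all 441 X- and Y-linked genes that were above 0 in the other 8 libraries, so Pola1, the X-linked gene of the set, has 2 antigen values.

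Against untreated cells, IgE libraries had higher levels of nearly the whole replication set. By limma's test on log2(FPKM + 1) with Benjamini-Hochberg adjustment over all 10890 tested genes, 43 of the 45 were higher at an adjusted p under 0.05, where 15.9% of all tested genes were called higher. None was lower, against 14.2% of all tested genes. The 2 not called were Rfc2 and Chaf1b. The 3 IgE values lay above the 3 untreated values for 44 of the 45 genes, where 21.3% of all tested genes were separated in that direction and 21.8% in the other. The median log2 difference of the 45 was 0.59, with a median ratio of group means of 1.55-fold, and the median over all tested genes was -0.0084. With IgE replicate 3 left out, 44 were called higher and the median was 0.63. These are bulk libraries, in which a larger share of cells in S phase and more RNA per cell cannot be told apart.

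After 2 h of antigen the direction turned. Relative to IgE alone, 42 of the 45 genes were lower by limma's test, with 36.2% of all tested genes called lower, and 1, Pcna, was higher, with 37.6% called higher. The 2 genes not called were Gins3 and Tyms. Values of the groups were separated for 42 genes in the downward direction, against 37.0% of all tested genes, and for 1 in the upward direction, against 38.3%. The median log2 difference was -0.78, with a median ratio of 0.559, beside a median of 0.0071 over all tested genes. Leaving out IgE replicate 3 gave 44 lower genes and a median of -0.84.

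The net difference between antigen and untreated libraries was smaller and mixed. Levels were lower than untreated for 24 genes by limma's test, where 35.6% of all tested genes were called lower, and higher for 6, where 38.7% were called higher. The remaining 15 were not called. Without replicate 3 of both IgE and antigen the counts were 23 lower and 6 higher. Groups were separated downward for 23 genes and upward for 7, beside 38.0% and 41.5% of all tested genes. At 24 of 45, the genes called lower make up a larger share than the background, and the 6 called higher a smaller one. The median log2 difference was -0.18 and that over all tested genes was 0.018. This comparison and the other two share libraries, so their values are given side by side and not as separate evidence.

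**Figure D1:**
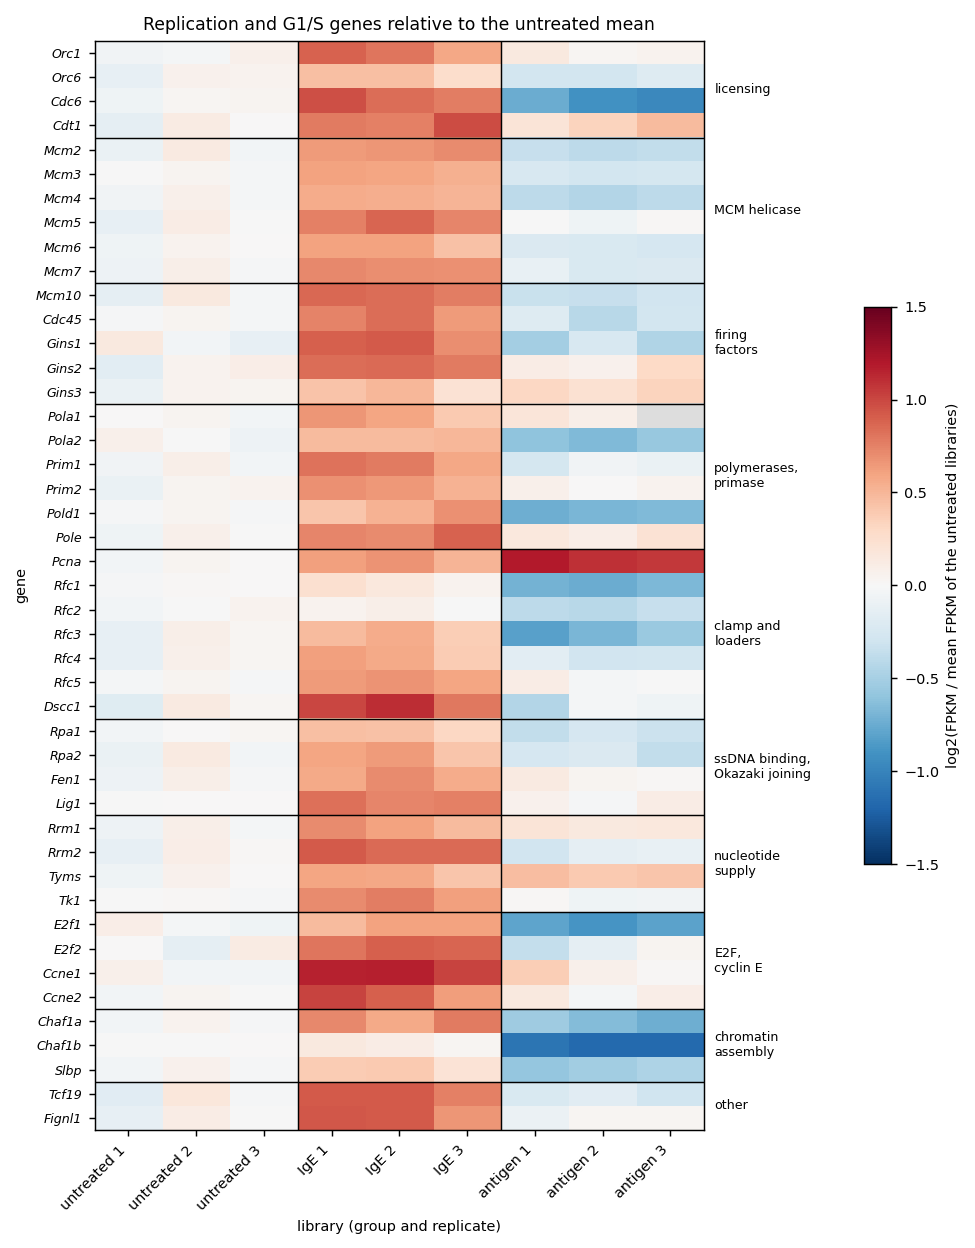
Each row is 1 of the 45 replication genes and each column 1 of the 9 libraries, grouped as untreated, IgE and antigen. Colour gives the log2 of FPKM divided by the gene's mean FPKM in the untreated libraries. The IgE columns are high in nearly every row, and Pcna is the row in which all antigen columns lie above the IgE columns.

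Promoter sequence was available for 37 of the 45 genes, in 42 RefSeq windows that run from 250 bases before the start to 50 after. Those of Rfc2, Pole, Gins1, Gins2, Prim2, Ccne2, Dscc1 and Mcm4 were not used here. The E2F letters searched for on both strands were TTTGGCGC, TTTCGCGC, TTTGGCGG and TTTCCCGC, with overlapping matches counted once. At least 1 of them was in 16 of the 42 windows, or 38.1%, compared with 777 of the 32851 windows of all genes, or 2.4%. CCAAT, the letters bound by NF-Y in many cell cycle promoters, was in 25 of the 42 windows, or 59.5%, compared with 37.4% of all windows. The 16 genes with E2F letters had median log2 differences of 0.55 for IgE against untreated and -0.78 for antigen against IgE. For the 21 genes with a window but no such letters the medians were 0.59 and -0.80, close to the first pair. A match is a description of letters and not a binding site, and no match says only that these letters are not in this window.

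Upstream stretches of 160 bases, 5′ to 3′ on the gene's strand and ending at the base before the start, are shown for 8 genes that differ in their response to antigen, with E2F and CCAAT letters in capitals. They come from the RefSeq table of GRCm38.p6. Mcm5 (chr8:75109349-75109508, plus strand) and Mcm6 (chr1:128359706-128359865, minus strand) code for helicase subunits, and both hold E2F and CCAAT letters. Orc1 (chr4:108579294-108579453, plus strand) and Cdc6 (chr11:98907991-98908150, plus strand) are licensing genes, with Cdc6 having the deepest fall of the set. Rfc3 (chr5:151651209-151651368, minus strand) and Chaf1a (chr17:56040256-56040415, plus strand) also fell steeply. Gins3 (chr8:95633399-95633558, plus strand) was not called against IgE although its stretch has the same kind of letters. Pcna (chr2:132253181-132253340, minus strand) was the gene that rose, and its stretch has 1 CCAAT match, on the opposite strand, and no E2F letters.
Mcm5: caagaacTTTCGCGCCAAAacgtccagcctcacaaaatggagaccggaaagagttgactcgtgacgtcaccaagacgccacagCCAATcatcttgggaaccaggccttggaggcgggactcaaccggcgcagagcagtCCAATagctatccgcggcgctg
Mcm6: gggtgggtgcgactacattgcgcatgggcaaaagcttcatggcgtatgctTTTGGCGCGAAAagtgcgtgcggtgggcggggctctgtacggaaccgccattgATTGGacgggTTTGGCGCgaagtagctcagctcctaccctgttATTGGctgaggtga
Orc1: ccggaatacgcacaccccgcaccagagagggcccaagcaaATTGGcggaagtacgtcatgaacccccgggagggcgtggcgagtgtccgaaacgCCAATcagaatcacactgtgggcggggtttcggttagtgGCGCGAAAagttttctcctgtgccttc
Cdc6: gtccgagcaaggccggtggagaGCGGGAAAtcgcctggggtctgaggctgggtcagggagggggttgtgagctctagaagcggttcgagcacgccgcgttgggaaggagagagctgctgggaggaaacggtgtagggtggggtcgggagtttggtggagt
Rfc3: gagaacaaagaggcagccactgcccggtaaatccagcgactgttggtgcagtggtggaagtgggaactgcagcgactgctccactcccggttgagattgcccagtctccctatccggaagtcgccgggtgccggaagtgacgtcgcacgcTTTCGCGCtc
Chaf1a: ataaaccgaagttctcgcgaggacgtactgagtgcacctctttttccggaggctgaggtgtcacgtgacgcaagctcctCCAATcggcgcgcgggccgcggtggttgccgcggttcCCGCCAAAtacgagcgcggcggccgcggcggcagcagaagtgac
Gins3: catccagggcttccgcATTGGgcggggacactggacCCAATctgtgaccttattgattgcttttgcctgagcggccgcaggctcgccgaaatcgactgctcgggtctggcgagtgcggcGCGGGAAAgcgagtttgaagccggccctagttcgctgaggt
Pcna: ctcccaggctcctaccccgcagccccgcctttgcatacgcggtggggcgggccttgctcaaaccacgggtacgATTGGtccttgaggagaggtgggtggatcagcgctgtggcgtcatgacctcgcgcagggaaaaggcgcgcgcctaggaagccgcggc

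**Figure D2:**
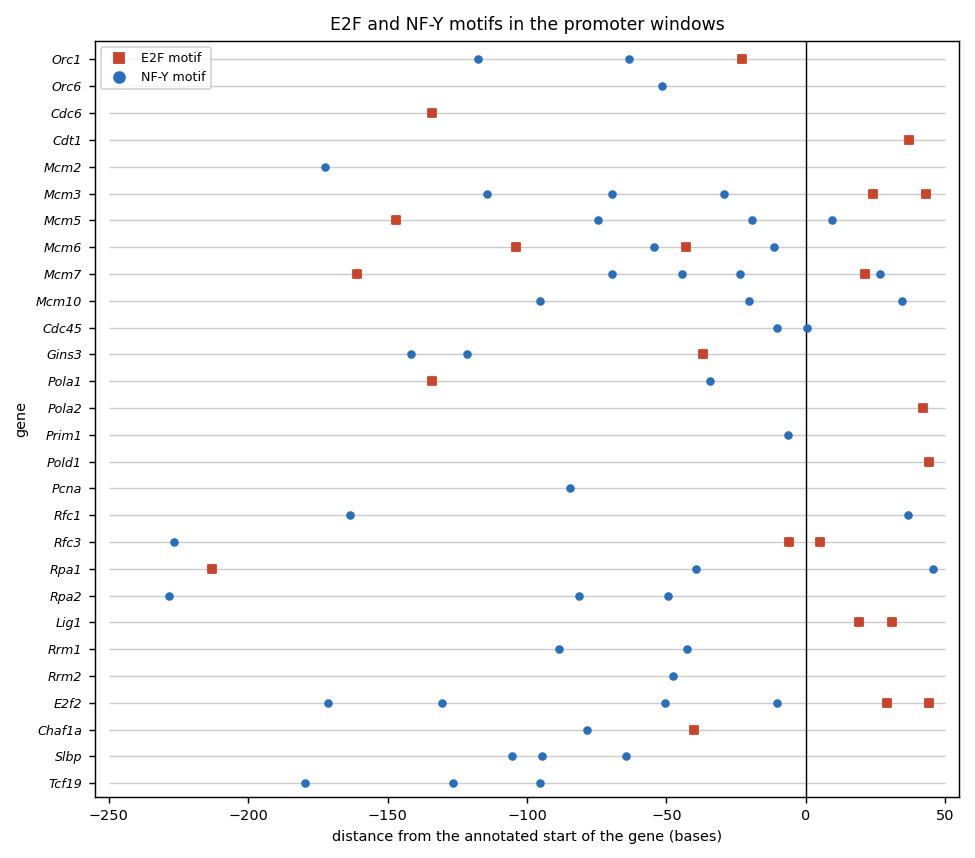
Matches to the E2F and NF-Y letters are drawn by distance from the transcription start for the promoter windows of the replication genes, with 1 row per gene that has a match and the windows of a gene overlaid. E2F matches are in 16 of the 42 windows and NF-Y matches in 25, and the Pcna row has an NF-Y match alone.

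The licensing genes all rose with IgE and all fell after antigen. Over all tested genes, 15.9% were called higher with IgE and 36.2% lower for antigen versus IgE. For antigen versus untreated, 35.6% were called lower and 38.7% higher. These shares stand behind the counts in each role group below, which are short parts of the 45. Cdc6, the loading factor that joins the origin complex, was at 3.39, 3.63 and 3.66 FPKM in the untreated libraries, 6.99, 6.34 and 6.04 FPKM in the IgE libraries and 2.13, 1.91 and 1.82 FPKM in the antigen libraries. The IgE values were the highest and the antigen values the lowest, with no overlap between any groups. Its level was 1.81-fold higher with IgE (log2 difference 0.71, SE 0.065, limma adjusted p = 7.47e-05) and then 3.31-fold lower after antigen (log2 -1.34, adjusted p = 2.06e-08), the steepest fall of the 45. Orc1, the largest origin recognition subunit, had the lowest level of the set, with 1.16, 1.18 and 1.26 FPKM in untreated libraries. It read 2.21, 2.09 and 1.80 FPKM with IgE and 1.33, 1.22 and 1.25 FPKM after antigen, which overlaps the untreated values. The differences were 0.46 and -0.42 on the log2 scale, and that between antigen and untreated was 0.043 (adjusted p = 0.561). At the estimated depth and the length of its longest transcript, the lowest Orc1 value rests on about 77 reads. That is a counting error of 11.4%, the largest of any member.

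Cdt1, the partner of CDC6 in loading the helicase, took a different net course. It measured 5.18, 6.22 and 5.72 FPKM in untreated, 9.82, 9.63 and 11.3 FPKM in IgE and 6.55, 7.17 and 7.92 FPKM in antigen libraries. Antigen values were under every IgE value and over every untreated value. The fall after antigen was 0.45 on the log2 scale (adjusted p = 0.00054), and the level stayed 1.26-fold above untreated (adjusted p = 0.00823). Orc6, a further origin recognition subunit, rose 1.31-fold with IgE and ended 1.19-fold below untreated (adjusted p = 0.00684). Its exons overlap those of Vps35 on the opposite strand, which read 71.6, 71.4 and 68.7 FPKM on average, so the Orc6 values are uncertain. Gmnn, which codes for geminin, the inhibitor of CDT1, is outside the 45 genes; its levels were 15.04, 16.2 and 13.7 FPKM in untreated, 24.7, 26.4 and 21.9 FPKM in IgE and 9.08, 9.06 and 8.57 FPKM in antigen libraries. It fell 2.73-fold between IgE and antigen (adjusted p = 4.9e-08), and Cdt1 fell 1.42-fold.

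The 6 subunits of the MCM helicase all rose and then all fell. With IgE they were 1.46-fold to 1.73-fold higher, and after antigen their ratios to IgE were 0.487 to 0.582. Mcm2 read 32.9, 38.6 and 34.2 FPKM untreated, 54.9, 55.9 and 57.6 FPKM with IgE and 27.9, 26.8 and 27.4 FPKM after antigen. The antigen libraries were below the untreated ones, without overlap. Its fall between IgE and antigen was 2.05-fold (log2 -1.01, SE 0.055, limma adjusted p = 4.94e-08), the largest of the 6. Mcm3 and Mcm6 had the highest levels, at 88.9 ± 2.24 and 86.6 ± 5.55 FPKM with IgE (mean and SD, n = 3). Mcm5 was at 28.9, 33.9 and 31.2 FPKM in untreated, 52.8, 57.3 and 52.03 FPKM in IgE and 31.3, 30 and 31.6 FPKM in antigen libraries, so that the antigen values lay within the untreated range. Between antigen and untreated, Mcm5 had a log2 difference of -0.013 (adjusted p = 0.85), which became -0.17 (adjusted p = 0.016) under quantile normalization. Mcm2, Mcm3, Mcm4, Mcm6 and Mcm7 were all lower than untreated, by 0.18 (Mcm7) to 0.39 (Mcm4) on the log2 scale.

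**Figure D3:**
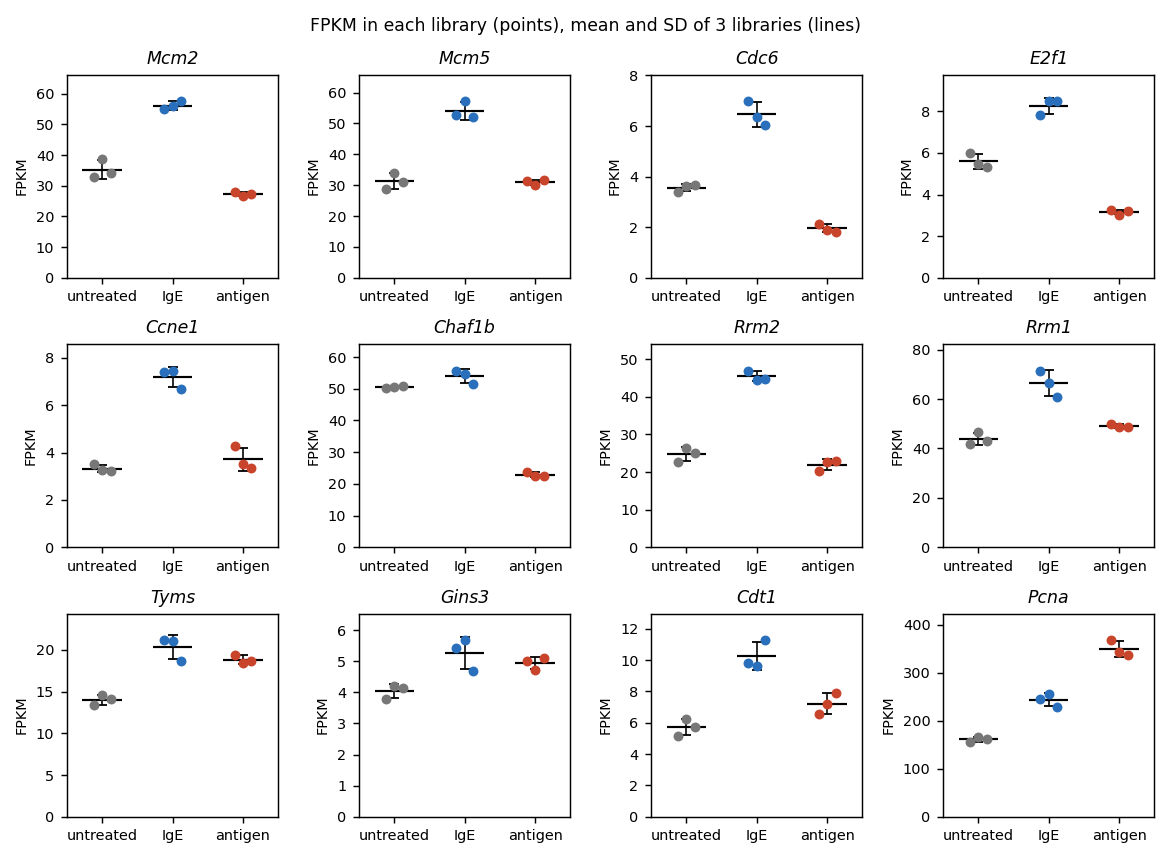
FPKM in each library is plotted by group for selected replication genes, with a point per library, a line at each group mean and bars of 1 SD. Mcm2 and Cdc6 peak with IgE and fall below the untreated level after antigen, while Pcna goes from 155.9 to 165.9 FPKM untreated to 337.1 to 368.1 FPKM after antigen.

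Among the factors that turn the loaded helicase on, Cdc45 and Mcm10 followed the helicase. Cdc45 was at 11.5 ± 0.338, 19.3 ± 1.32 and 9.45 ± 0.723 FPKM in the untreated, IgE and antigen groups, and Mcm10 at 6.40 ± 0.630, 11.3 ± 0.365 and 5.12 ± 0.109 FPKM (mean and SD, n = 3). Both were lower after antigen than in untreated cells (adjusted p = 0.00308 and 0.00242). Of the 3 GINS genes in the set, Gins3 was the one not called lower after antigen. Gins4, the remaining subunit of the complex, is in the list of further fork genes, was named here after its values were seen, and fell from 35.7 ± 2.17 to 25.3 ± 1.34 FPKM (adjusted p = 1.55e-05). Gins1 read 4.89, 4.30 and 4.05 FPKM untreated, 8.22, 8.37 and 7.15 FPKM with IgE and 3.10, 3.75 and 3.24 FPKM after antigen. Gins2 read 8.71, 10.03 and 10.4 FPKM untreated, 17.3, 17.5 and 16.6 FPKM with IgE and 10.5, 10.2 and 11.9 FPKM after antigen, ending among or just above its untreated values, with overlap. Exons of Gins2 overlap those of Gse1 on the opposite strand, which read 8.46, 7.69 and 18.1 FPKM on average in the 3 groups, so the Gins2 values are uncertain. For Gins3 the values were 3.77, 4.19 and 4.13 FPKM untreated, 5.43, 5.68 and 4.67 FPKM with IgE and 4.999, 4.71 and 5.09 FPKM after antigen, its antigen values overlapping those with IgE and all above untreated. The antigen to IgE log2 difference was -1.03 for Gins1 (adjusted p = 9.94e-07), -0.62 for Gins2 (adjusted p = 1.93e-05) and -0.074 for Gins3 (adjusted p = 0.349). For Gins3 the last value became -0.14 (adjusted p = 0.0448) when IgE replicate 3 was left out.

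All 6 polymerase and primase genes rose with IgE and fell after antigen. Pold1, the catalytic subunit of polymerase delta, was at 15.3, 15.9 and 15.3 FPKM in untreated, 20.7, 22.3 and 24.8 FPKM in IgE and 9.33, 9.62 and 9.77 FPKM in antigen libraries. Pola2, a subunit of polymerase alpha, was at 17.3, 16.3 and 15.6 FPKM untreated, 22.8, 22.9 and 23.1 FPKM with IgE and 10.8, 10.3 and 11.1 FPKM after antigen. In both genes the antigen libraries were below the untreated ones without overlap, by 1.62-fold and 1.53-fold. Pole, the catalytic subunit of polymerase epsilon, read 7.27, 7.99 and 7.54 FPKM untreated, 12.6, 12.4 and 14 FPKM with IgE and 8.47, 8.13 and 8.80 FPKM after antigen. Its antigen libraries were just above the untreated ones, with a log2 difference of 0.14 (adjusted p = 0.0476). That call was lost when untreated replicate 1 (adjusted p = 0.151), untreated replicate 3 (0.106), IgE replicate 1 (0.057), antigen replicate 1 (0.0947) or antigen replicate 3 (0.147) was left out. Pola1, the catalytic subunit of polymerase alpha, measured 19.4, 19.99 and 18.9 FPKM untreated, 30.8, 29.4 and 25.6 FPKM with IgE and 22.1 and 20.6 FPKM in the 2 antigen libraries with a value. Its antigen to untreated log2 difference of 0.13 was not called (adjusted p = 0.143) but was with IgE replicate 3 left out (0.0293). The primase genes Prim1 and Prim2 both rose with IgE, by 1.66-fold and 1.53-fold, and neither was called against untreated after antigen (adjusted p = 0.132 and 0.477). The antigen values of Prim1 were all below its untreated values, and it was called lower under median centring (adjusted p = 0.0475) and quantile normalization (0.0387).

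Pcna was the exception of the set. The clamp that PCNA forms also serves DNA repair and mismatch correction. It was at 156, 166 and 161 FPKM in untreated, 246, 256 and 229 FPKM in IgE and 368, 344 and 337 FPKM in antigen libraries. Each group was above the one before it with no overlap. The first step was 1.51-fold (log2 0.59, SE 0.053, limma adjusted p = 7.35e-05) and the second 1.44-fold (log2 0.52, SE 0.053, adjusted p = 7.35e-06). Its ratio to the mean of the 6 MCM genes in the same library was 3.82, 3.69 and 3.83 in untreated, 3.71, 3.82 and 3.58 in IgE and 10.03, 9.71 and 9.39 in antigen libraries, so the balance changed at the antigen step.

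All 6 clamp loader genes fell after antigen, and all but Rfc2 had risen with IgE. Rfc3 was at 11.5, 13.2 and 12.7 FPKM untreated, 17.4, 18.4 and 16.1 FPKM with IgE and 7.11, 7.73 and 8.47 FPKM after antigen, the last being 1.60-fold below untreated. Dscc1, part of the alternative loader that acts in sister chromatid cohesion, was 1.96-fold higher with IgE, going from 4.11 ± 0.439 to 8.07 ± 0.884 FPKM. Rfc1, the large loader subunit, was 30.1, 30.8 and 30.6 FPKM in untreated, 35.9, 34.1 and 31.7 FPKM in IgE and 18.6, 18.1 and 19.2 FPKM in antigen libraries. Its increase with IgE was small (log2 0.15, adjusted p = 0.0406) and was lost when any single library other than IgE replicate 3 was left out, with adjusted p from 0.0524 without antigen replicate 3 to 0.135 without IgE replicate 1. Its fall after antigen was 1.82-fold (adjusted p = 7.29e-08). Rfc4 and Rfc5 rose 1.44-fold and 1.55-fold and fell again, Rfc4 to a level below untreated (adjusted p = 0.0143). This last call was lost without untreated replicate 2 (0.0578) or antigen replicate 2 (0.0504). Exons of Rfc4 overlap those of Eif4a2 on the opposite strand, which read 102.8, 91.0 and 77.1 FPKM on average, so the Rfc4 values are uncertain. Rfc2 is uncertain: its exons overlap those of Lat2 on the opposite strand, the use of strand in counting is not given, and Lat2 read 486, 493 and 633 FPKM on average. Rfc2 was listed at 249.3, 256 and 266 FPKM untreated, 267, 272 and 255 FPKM with IgE and 195, 193 and 202 FPKM after antigen, the highest of the set in the first 2 groups.

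The 4 genes of single-strand binding and Okazaki joining all rose with IgE and all fell after antigen. Rpa1 and Rpa2, subunits of the protein that coats single strands, rose 1.32-fold and 1.47-fold and ended 1.24-fold and 1.21-fold below untreated (adjusted p = 0.000157 and 0.00822). Fen1, the flap nuclease, and Lig1, the ligase that seals the fragments, rose 1.53-fold and 1.71-fold. After antigen Lig1 read 19.1, 18.1 and 19.8 FPKM beside 18.3, 18.3 and 18.4 FPKM untreated, and neither gene was called against untreated (adjusted p = 0.353 for Fen1 and 0.331 for Lig1).

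The genes of nucleotide supply split after antigen. Rrm2, the cell cycle-regulated small subunit of ribonucleotide reductase, was at 22.8, 26.5 and 24.97 FPKM untreated, 47.01, 44.6 and 44.8 FPKM with IgE and 20.3, 22.6 and 22.9 FPKM after antigen. Rrm1, the large subunit, was at 41.7, 46.7 and 43.05 FPKM untreated, 71.6, 66.5 and 61.1 FPKM with IgE and 50.02, 48.5 and 48.9 FPKM after antigen. Rrm2 thus fell 2.07-fold and Rrm1 1.35-fold from the IgE level, and the Rrm2 to Rrm1 ratio was 0.657, 0.671 and 0.733 with IgE and 0.406, 0.466 and 0.468 after antigen. Against untreated, Rrm1 was higher by 0.16 (adjusted p = 0.0291) and Rrm2 lower by 0.17 (adjusted p = 0.0309) on the log2 scale. Both calls were weak: that of Rrm1 was lost without untreated replicate 1 or 3 or any 1 antigen library (adjusted p 0.0539 to 0.106) and turned to -0.046 under quantile normalization, and that of Rrm2 was lost without untreated replicate 2 (0.123), untreated replicate 3 (0.0784) or antigen replicate 1 (0.126). Tyms, thymidylate synthase, was at 13.4, 14.6 and 14.1 FPKM in untreated, 21.2, 21.1 and 18.7 FPKM in IgE and 19.4, 18.4 and 18.7 FPKM in antigen libraries. Antigen values overlapped those with IgE and were above all untreated values, by 1.34-fold (adjusted p = 6.8e-05). The antigen to IgE difference of Tyms was -0.10 (adjusted p = 0.119), and -0.16 (0.00837) without IgE replicate 3. Tk1, thymidine kinase, which makes the same nucleotide by salvage, went back to 13.9, 13.1 and 13.2 FPKM from 22.5, 23.4 and 20.98 FPKM with IgE, overlapping its untreated values of 13.7, 13.9 and 13.6 FPKM.

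**Figure D4:**
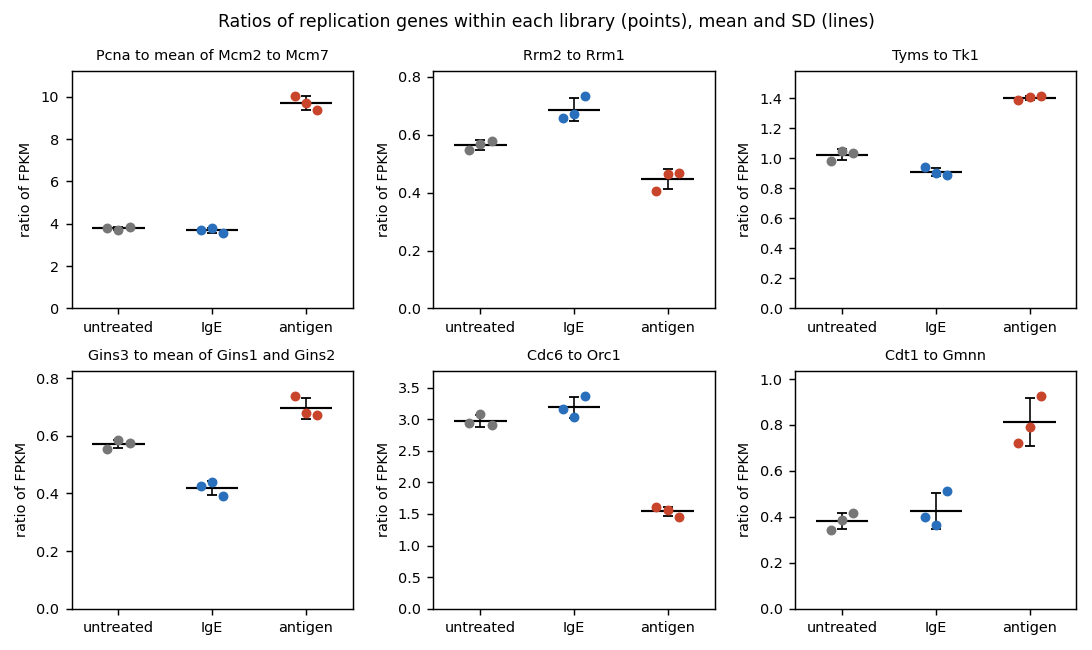
Ratios of the FPKM of 2 genes, or of a gene and the mean of its partners, are plotted for each of the 9 libraries by group, with a line at each group mean, bars of 1 SD and the axis starting at 0. The ratio of Pcna to the MCM genes is 3.583 to 3.825 in the untreated and IgE libraries and 9.387 to 10.03 in the antigen libraries, and the ratio of Cdc6 to Orc1 is 2.905 to 3.36 in the first 6 libraries and 1.455 to 1.606 after antigen.

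These ratios were picked after the levels had been seen and carry no test. Tyms to Tk1 was 0.981, 1.05 and 1.04 in untreated, 0.941, 0.902 and 0.889 in IgE and 1.39, 1.41 and 1.42 in antigen libraries. Gins3 to the mean of Gins1 and Gins2 was 0.555, 0.585 and 0.574 in untreated, 0.426, 0.438 and 0.393 in IgE and 0.736, 0.678 and 0.671 in antigen libraries, with the Gins2 values uncertain as described. Cdt1 to Gmnn was 0.344, 0.384 and 0.418 in untreated, 0.398, 0.365 and 0.514 in IgE and 0.721, 0.792 and 0.924 in antigen libraries. In each of these the antigen libraries were the highest, without overlap.

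All 4 regulators at the G1/S boundary rose with IgE and fell after antigen. Of all tested genes, 15.9% were called higher and 36.2% lower in those comparisons. Ccne1, cyclin E1, had the largest rise of the 45 with IgE, from 3.51, 3.24 and 3.23 FPKM untreated to 7.40, 7.47 and 6.69 FPKM, a 2.16-fold rise (log2 0.92, SE 0.076, limma adjusted p = 5.52e-05). It then read 4.28, 3.52 and 3.37 FPKM after antigen, with replicates 1 and 2 above all untreated values and replicate 3 among them. Ccne2, cyclin E2, read 9.47, 10.1 and 9.72 FPKM untreated, 19.6, 18.2 and 15.1 FPKM with IgE and 10.8, 9.59 and 10.4 FPKM after antigen, where the antigen values overlap the untreated ones. E2f1, an activating E2F, was at 5.996, 5.46 and 5.33 FPKM untreated, 7.81, 8.50 and 8.48 FPKM with IgE and 3.24, 3.02 and 3.21 FPKM after antigen. It ended 1.77-fold below untreated (adjusted p = 1.66e-06), while Ccne1, Ccne2 and E2f2 were not called in that comparison. E2f2 was among the lowest of the set, at 1.42, 1.30 and 1.54 FPKM untreated, 2.48, 2.63 and 2.60 FPKM with IgE and 1.11, 1.29 and 1.46 FPKM after antigen.

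The 3 genes of histone handling and chromatin assembly had the lowest net median of the role groups, -0.55 on the log2 scale. All 3 were lower than untreated, where 35.6% of all tested genes were called lower. Chaf1b, a subunit of the histone chaperone CAF-1, was at 50.2, 50.5 and 50.9 FPKM in untreated, 55.7, 54.6 and 51.4 FPKM in IgE and 23.7, 22.6 and 22.5 FPKM in antigen libraries. Its IgE difference was 0.091 (adjusted p = 0.112), and 0.12 (0.0187) without IgE replicate 3. After antigen the level was 2.20-fold below untreated (log2 -1.11, SE 0.04, adjusted p = 2.12e-09), the largest net fall of the 45. Chaf1a, the large CAF-1 subunit, was called higher with IgE (adjusted p = 0.000106), at 8.15, 8.66 and 8.30 FPKM untreated, 13.8, 12.4 and 14.4 FPKM with IgE and 5.80, 5.33 and 5.03 FPKM after antigen. Slbp, which binds the stem-loop of histone mRNA, rose 1.26-fold and fell 1.80-fold. Tcf19, a gene switched on at G1/S, and Fignl1, a factor in recombination repair, rose 1.82-fold and 1.80-fold with IgE. Tcf19 was called lower than untreated after antigen (log2 -0.22, adjusted p = 0.027), a call lost without untreated replicate 2 (0.106), untreated replicate 3 (0.0564), antigen replicate 1 (0.0586) or antigen replicate 3 (0.0885).

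**Figure D5:**
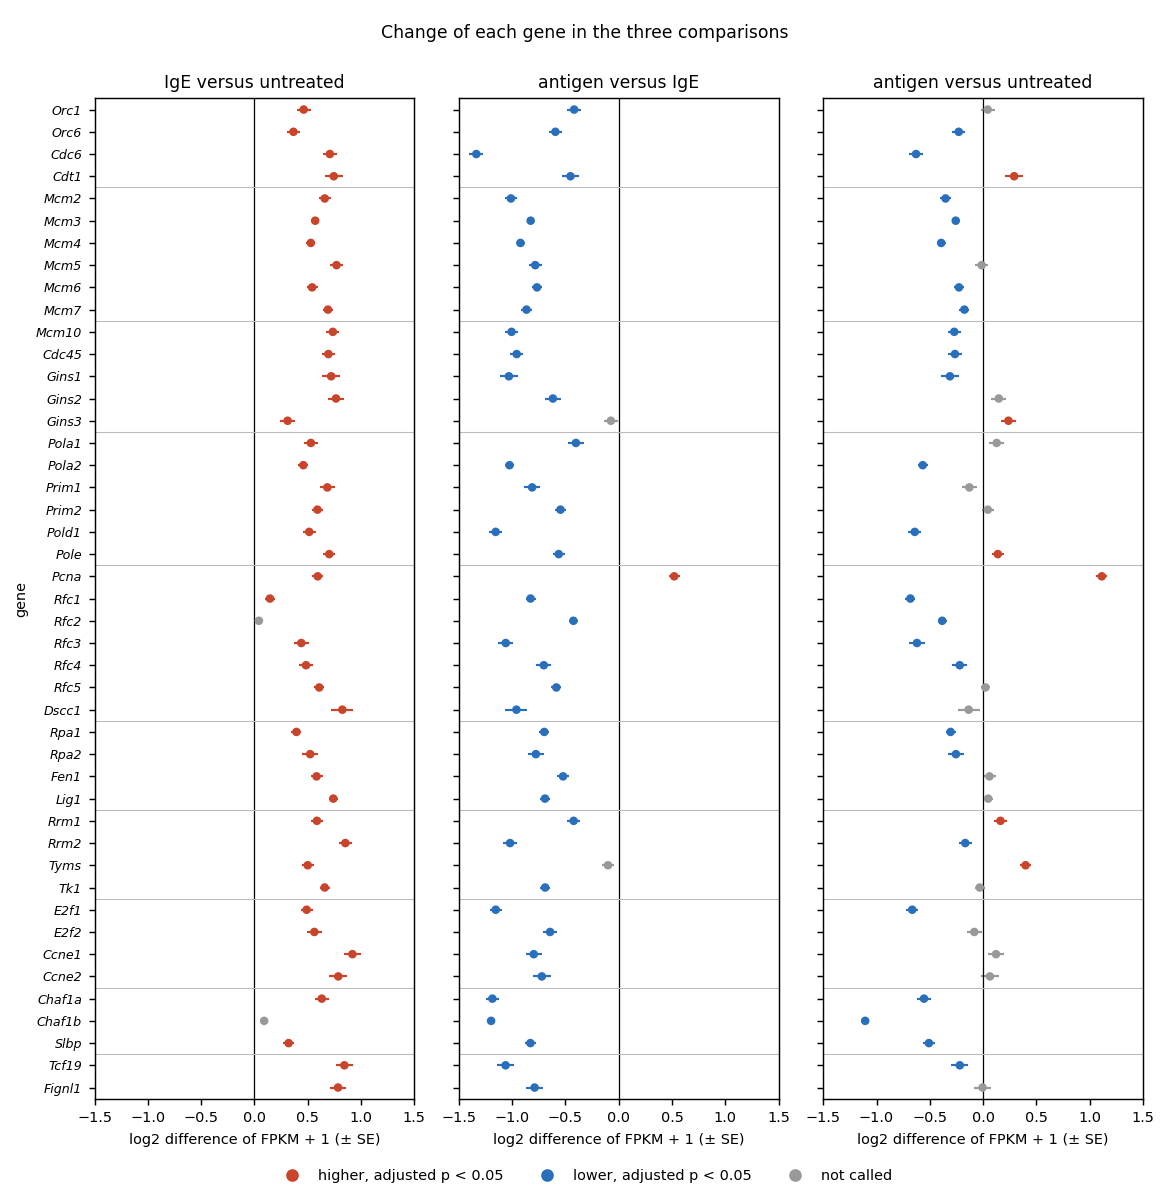
The log2(FPKM + 1) difference of each replication gene is drawn with its standard error for the 3 comparisons, with genes ordered by role. In the first comparison all points are above 0, in the second all but Pcna are below it, and in the third they scatter around a median of -0.18.

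Beyond the 45, 86 further genes of the same processes in 8 lists were all tested. With IgE 60 of the 86 were higher and 3 lower than untreated by limma's test, beside 15.9% and 14.2% of all tested genes, with a median log2 difference of 0.35. After antigen 8 were higher and 66 lower than with IgE, where 37.6% and 36.2% of all tested genes were called, with a median of -0.48. Against untreated the counts were 14 higher and 47 lower, where 38.7% and 35.6% of all tested genes were called, with a median of -0.18. The shares over all genes also stand behind the counts of the single lists, which are short. The 15 genes of firing and the fork were all lower after antigen, with Cdc7, the kinase that triggers firing, at 6.94, 7.41 and 6.30 FPKM untreated, 10.1, 10.4 and 9.90 FPKM with IgE and 3.82, 4.02 and 3.71 FPKM after antigen. Clspn, Timeless and Recql4 led the rises of that list with IgE (1.66-fold, 1.74-fold and 1.65-fold). Of the 6 other licensing genes 1, Orc4, rose after antigen (1.38-fold), and 4 fell, led by Gmnn. In the list of 8 other polymerase subunits 6 fell, led by Pold2 (2.41-fold) and Pole2 (2.02-fold).

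Clamp loader and Okazaki genes outside the set numbered 9, of which 8 were lower after antigen, where 36.2% of all tested genes were called lower. Dna2, the helicase-nuclease of flap processing, was at 5.29 ± 0.285 FPKM with IgE and 1.47 ± 0.175 FPKM after antigen. Of 14 further nucleotide genes, 12 rose with IgE, where 15.9% of all tested genes were called higher. Dut, the enzyme that keeps dUTP low, was among the 12 (1.63-fold). The 2 that fell were Samhd1, which breaks down deoxynucleotides, and Rrm2b, the p53-inducible reductase subunit (log2 -0.28 and -0.25). In the E2F and pocket protein list of 11, Rbl2, the pocket protein of resting cells, was lower with IgE (log2 -0.27) and lower again after antigen (log2 -0.96). E2f8, a repressive E2F, fell 2.68-fold after antigen, while E2f3 and E2f5 were 1.42-fold and 1.47-fold higher. Among 10 genes of chromatin copying, Ung, the uracil glycosylase that acts behind the fork, had the steepest fall of all 86. It was at 2.27, 2.58 and 2.40 FPKM untreated, 4.56, 4.67 and 4.93 FPKM with IgE and 0.662, 0.484 and 0.513 FPKM after antigen. The fall between IgE and antigen was 8.54-fold (log2 -1.88, SE 0.064, limma adjusted p = 1.53e-09). All antigen values of Ung were under the filter level of 1 FPKM and its reads were not estimated, so the size of this fold is uncertain. Hat1, the histone acetyltransferase of newly made histones, rose in that list (1.33-fold).

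The 10 proliferation reference genes, among them Mki67, summed to 338.8 to 345.1 FPKM in untreated, 452.1 to 478.4 FPKM in IgE and 314.9 to 326.1 FPKM in antigen libraries. All 10 were higher with IgE than in untreated cells and 9 were lower after antigen than with IgE, where 15.9% of all tested genes were called higher and 36.2% lower in those comparisons. Their movement beside that of the replication genes is a measured fact, and its part in the results was not tested. Exons of 16 of the 45 genes overlap another gene, in most cases on the opposite strand, and without stated strand use the reads of such pairs cannot be told apart. Among them are Rfc2 with Lat2, Gins2 with Gse1, Orc6 with Vps35 and Rfc4 with Eif4a2, as given above. Tk1 overlaps Afmid, which read 4.05, 3.40 and 1.26 FPKM in the 3 groups. Rfc5 overlaps Wsb2, which read 18.8, 20.9 and 29.4 FPKM. Fen1 overlaps Tmem258, at 172.5, 187.1 and 194.7 FPKM, and Chaf1a overlaps Ubxn6, at 42.8, 40.35 and 43.05 FPKM. Ccne2 overlaps Ints8, at 16.7, 17.95 and 16.1 FPKM, and Mcm7 overlaps Ap4m1 and Cops6. The values of these members are uncertain too. The labels do not say whether replicates were separate cultures or animals. The p-values therefore reflect the variation among these particular libraries, which may be technical.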

How the data were processed

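Bulk RNA of 9 mast cell libraries, 3 per group by the treatment labels, was read from 1 table of FPKM values that the authors deposited for 23951 gene symbols. TopHat2 2.0.12, Bowtie 0.12.7 and the build mm9 are named in the submitters' processing notes. Not given in the sources used here are the program that made the FPKM values, its gene models and whether strand was used. The members and lists were chosen with earlier results of these data known.

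The 10890 genes that reached 1 FPKM in 3 or more libraries were tested in 1 fit of limma 3.58.1 in R 4.3.3 with trend on log2(FPKM + 1), with 1 coefficient per group. Tests were two-sided, adjusted by Benjamini-Hochberg within a comparison and called at an adjusted p under 0.05. Log2 differences understate the change of low genes; folds are ratios of mean FPKM. Errors after ± are SD. X- and Y-linked zeros of antigen replicate 3 were set missing. Every member may be named, and of each further list up to 3 called genes per direction and comparison with the largest log2 change.

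Read totals are not part of FPKM values. Depth was instead estimated from steps between low values in 8080 genes with a single transcript in GENCODE M21; 54.9% to 63.7% of low values lay within 0.1 read of a whole number, which gives estimates only and no count test. Reads per gene were computed from FPKM, this depth and the longest GENCODE M21 transcript of the gene. Where the FPKM rests on a shorter transcript, the reads are fewer and the counting error larger. Counting errors cover sampling alone. On simulated data with 200 changed genes of 10890, a log2 change of 0.5 was recovered in 88.5% (IgE versus untreated), 92% (antigen versus IgE) and 86.5% (antigen versus untreated) of genes, and one of 0.25 in 28.5%, 37% and 37%. A far larger share of genes was called in the data, and the adjustment depends on that share. These rates therefore do not give the recovery of the tests reported here. Alternatives covered the pseudocount, filter, scaling, prior, libraries fitted, X and Y zeros, replicate block and each library left out. Promoter sequences and the coordinates printed with them came from the RefSeq table of GRCm38.p6, not from mm9, the build of the files. Exon overlaps were read from GENCODE M21, which may differ from the gene models the authors used.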

Additional observations from a re-analysis of the deposited data

How the results depend on the processing

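Of 135 gene results (45 genes in 3 comparisons), 121 kept their call under all 20 alternatives and 14 did not, with 43 calls lost, 14 gained and 1 direction reversed. The reversal was Rrm1 for antigen versus untreated, -0.046 under quantile normalization (adjusted p = 0.451). The cause was not tested. The least firm calls were Rfc1 for IgE versus untreated (adjusted p = 0.0406, 0.00451 to 0.135 over the alternatives, lost in 13) and Pole for antigen versus untreated (0.0476, 0.0187 to 0.159, lost in 10). With X and Y zeros kept, Pola1 lost both of its calls (adjusted p = 0.758 and 0.138), since 1 of 3 antigen values is then 0. The filter of 5 FPKM tested 43 of the 45 genes.

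The median log2 difference for antigen versus IgE was -0.84 and -0.80 with pseudocounts of 0.1 and 0.5, -0.83 with median centring, -0.86 with quantile normalization and -0.82 with replicate 3 of both IgE and antigen left out, and -0.84 to -0.74 with each library left out in turn. For antigen versus untreated it was -0.22 with the 5 FPKM filter, -0.22 with median centring, -0.23 with quantile normalization and -0.22 with X and Y zeros kept, and -0.22 to -0.13 with each library left out. For IgE versus untreated it ran from 0.57 to 0.63 with each library left out. Over all genes, those called lower with IgE went from 1546 to 1020 without untreated replicate 3.

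Correlations of same-numbered libraries of different groups ran from -0.331 to 0.35, and those of differently numbered ones from -0.349 to 0.244. With 3 libraries per group these ranges do not decide whether the numbers pair the samples. With the number as a replicate block, 42 genes were higher with IgE, 42 were lower and 1 higher for antigen versus IgE, and 24 were lower and 5 higher for antigen versus untreated. Low estimated reads, down to about 77 per gene and library, limit the precision of Orc1, Gins1 and Dscc1 most.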

Other observations

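Among the 86 further genes counted above, the list of 13 checkpoint and kinase genes was not yet described. With IgE 6 were higher and none was lower than untreated, where 15.9% and 14.2% of all tested genes were called, led by Chek1, the kinase that answers stalled forks, at 3.16, 3.50 and 2.91 FPKM untreated and 6.40, 6.18 and 5.996 FPKM with IgE (1.94-fold, limma adjusted p = 5.52e-05), followed by Fbxo5 and Ccna2 (1.45-fold and 1.36-fold). After antigen 9 were lower than with IgE and 2 were higher, where 36.2% and 37.6% of all tested genes were called. Chek1 fell to 2.47, 2.45 and 2.75 FPKM (2.42-fold), Cdk2 fell 1.74-fold and Fbxo5 1.43-fold. The 2 that rose were Wee1, the kinase that holds back cyclin-dependent kinases, and Rad9a, part of the checkpoint clamp. Wee1 read 7.95, 8.03 and 7.96 FPKM untreated, 7.07, 7.99 and 9.84 FPKM with IgE and 13.2, 14 and 14.8 FPKM after antigen, 1.69-fold above IgE (log2 0.70, SE 0.091, adjusted p = 4.64e-05), with no overlap between the antigen and the other libraries. Rad9a was 1.25-fold above IgE (adjusted p = 0.00196).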
